A study of Homo sapiens with 14 samples.

Results

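Long noncoding RNAs are transcripts that are not translated into protein, and 10 much-studied ones were followed in OVCAR4 ovarian cancer cells after small interfering RNA (siRNA) pools against transcription factors. The members were taken by name: MALAT1, NEAT1, PVT1, H19, GAS5, MIR22HG, MIR31HG, UCA1, DANCR and SNHG1. All 10 were found among the 58219 genes of the count table, and all 10 were among the 21032 genes with enough reads to be tested. OVCAR4 is an established line of high-grade serous ovarian carcinoma. Its cells were transfected with pools against PAX8 (siPAX8), SOX17 (siSOX17), PAX8 and SOX17 together (siDual), MECOM (siMECOM) or WT1 (siWT1), or with 1 of 2 non-targeting pools, the ON-TARGETplus pool siNT1 and the custom pool siNT2. Each of the 7 groups had 2 libraries of total RNA, and the 4 non-targeting libraries are called the controls. In every group 300000 cells received 120 nM of siRNA in suspension, fresh medium at 24 h, and were harvested at 72 h. All groups are 1 cell line, there was no untransfected group, and nothing in the labels ties the 2 libraries of a group to separate cultures. The p-values therefore measure only the spread between these libraries, which may be technical.

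Several of these RNAs are known less for themselves than for what they carry. GAS5, SNHG1 and DANCR are host genes of small nucleolar RNAs (snoRNAs), the guides for chemical modification of ribosomal RNA, which are cut from their introns; the spliced host is in many cases a target of nonsense-mediated decay, the pathway that removes RNAs with an early stop codon. MIR22HG, MIR31HG and H19 give rise to the microRNAs miR-22, miR-31 and miR-675. NEAT1 is the scaffold of paraspeckles, nuclear bodies built on it by RNA-binding proteins, and MALAT1 is an abundant RNA of nuclear speckles, where splicing factors gather. H19 is an imprinted fetal RNA, PVT1 is the neighbour of the oncogene MYC, and UCA1 was named for its level in bladder carcinoma.

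The mature microRNAs of the host genes that moved most are shown because they are what MIR22HG and MIR31HG are known for; they are from RefSeq on GRCh38.p14, and capitals mark the seed, bases 2 to 8, which pairs with targets. The 3 seeds shown differ from each other. For miR-31 only the 5p arm was listed, so not every seed of the hosts was compared.
hsa-miR-22-3p: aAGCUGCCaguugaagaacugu
hsa-miR-22-5p: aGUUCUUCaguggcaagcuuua
hsa-miR-31-5p: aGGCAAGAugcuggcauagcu

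The RefSeq promoters of the 5 members that made up the main opposing patterns, 3 snoRNA hosts and 2 microRNA hosts, are shown next, each 250 bases before to 50 bases after the RefSeq start on GRCh38.p14, read along the gene's own strand. They are chr1:173868996-173869295 on the minus strand for GAS5, chr11:62855836-62856135 on the minus strand for SNHG1, chr4:52712144-52712443 on the plus strand for DANCR, chr17:1716161-1716460 on the minus strand for MIR22HG and chr9:21559749-21560048 on the minus strand for MIR31HG. RefSeq starts can lie apart from the gene ends of the count table. Capitals mark CCAAT on either strand, which reads ATTGG on the other.
GAS5: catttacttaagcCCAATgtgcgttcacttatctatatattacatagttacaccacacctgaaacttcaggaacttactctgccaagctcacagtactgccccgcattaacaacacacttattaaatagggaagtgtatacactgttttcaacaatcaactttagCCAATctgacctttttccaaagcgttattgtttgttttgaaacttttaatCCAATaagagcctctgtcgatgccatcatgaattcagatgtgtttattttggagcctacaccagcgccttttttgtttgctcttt
SNHG1: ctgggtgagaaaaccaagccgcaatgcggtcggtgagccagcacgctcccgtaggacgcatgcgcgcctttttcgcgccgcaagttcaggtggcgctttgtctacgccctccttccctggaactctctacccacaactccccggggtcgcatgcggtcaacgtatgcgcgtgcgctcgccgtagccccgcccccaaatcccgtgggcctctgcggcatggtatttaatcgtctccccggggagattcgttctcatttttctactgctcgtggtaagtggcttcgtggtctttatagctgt
DANCR: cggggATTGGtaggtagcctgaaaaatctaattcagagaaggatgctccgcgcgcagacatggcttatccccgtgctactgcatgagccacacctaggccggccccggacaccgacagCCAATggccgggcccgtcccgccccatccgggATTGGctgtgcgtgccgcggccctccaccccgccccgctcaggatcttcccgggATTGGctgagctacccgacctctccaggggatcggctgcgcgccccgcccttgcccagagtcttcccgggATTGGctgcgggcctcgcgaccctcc
MIR22HG: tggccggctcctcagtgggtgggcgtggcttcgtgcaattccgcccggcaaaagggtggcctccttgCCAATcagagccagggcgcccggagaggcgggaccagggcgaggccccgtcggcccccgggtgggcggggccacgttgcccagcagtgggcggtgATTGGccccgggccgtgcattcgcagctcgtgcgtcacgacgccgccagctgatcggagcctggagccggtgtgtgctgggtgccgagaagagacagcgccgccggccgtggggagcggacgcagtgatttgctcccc
MIR31HG: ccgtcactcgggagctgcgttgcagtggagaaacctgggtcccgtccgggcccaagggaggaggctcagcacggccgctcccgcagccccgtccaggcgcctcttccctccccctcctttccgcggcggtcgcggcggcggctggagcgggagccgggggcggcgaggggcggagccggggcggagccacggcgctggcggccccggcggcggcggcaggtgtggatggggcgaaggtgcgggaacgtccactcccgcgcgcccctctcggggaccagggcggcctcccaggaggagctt

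The 7 members with a promoter in the RefSeq table were searched on both strands for 8 short motifs. The CCAAT box was in 34.6% of the 35116 promoters of the table. DANCR held 5 copies, a number reached or passed by 0.359% of these promoters, GAS5 held 3, reached by 3.26%, and MIR22HG held 2, reached by 10.8%, while SNHG1 and MIR31HG held none. Shares by number of copies were worked out for CCAAT alone of the 8 motifs, and the 5 windows shown are of members picked for their changes. Beyond CCAAT, the SOX core AACAAT, present in 10.1% of promoters, was found 2 times in GAS5 only among the 5 shown. The pattern GNGTGGGNG, of the EGR and WT1 type and present in 16.2%, was found 2 times in MIR22HG only. The GC box GGGCGG, present in 45.0%, was found in 4 of the 5, GAS5 being the exception. The letters ACGTG, in 21.4% of promoters and also part of CACGTG, were found in MIR22HG alone, and CACGTG (7.26%), TGACTCA (4.95%) and GGAATG (14%) were in none of the 5 windows. These matches describe the letters in these windows and are not measured binding sites. None of the 8 motifs was in the windows of all 3 snoRNA hosts.

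In the controls the members spanned a wide range. Levels in CPM, a gene's read count scaled to the TMM-adjusted size of its library, were divided by the kilobases of exon in the count table, so that genes could be set side by side. DANCR was highest of the 10 at 48.6 CPM per kb, followed by MALAT1 at 19.4, UCA1 at 13.1, GAS5 at 6.54, SNHG1 at 4.43 and MIR31HG at 3.1 CPM per kb. NEAT1, at 1.01 CPM per kb over 22767 exon bases, MIR22HG at 0.976 and PVT1 at 0.701 were lower. H19 was near the limit of detection at 0.1 CPM per kb, with 8 to 16 reads in each control library. In bulk RNA, fewer cells with an RNA and less of it per cell cannot be told apart.

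Libraries held 41107918 to 49803860 counts in the knockdown groups and 40832825 to 49059114 in the controls. PAX8 RNA was 17.4% of the control mean in siPAX8 and 25.2% in siDual, SOX17 was 13.0% in siSOX17 and 15.2% in siDual, and MECOM was 9.69% in siMECOM. The other factors moved too: MECOM was 75.2% of the control mean in siPAX8, 34.3% in siSOX17 and 37.9% in siDual, PAX8 was 132% in siSOX17 and 56.1% in siWT1, and SOX17 was 72.7% in siPAX8 and 207% in siMECOM. WT1 was barely present: 1 read in both siWT1 libraries together, against 36 in siNT1 and 39 in siNT2. Mitochondrially encoded genes took 7.91% to 10.98% of counts in knockdown libraries and 5.34% to 6.13% in controls, ribosomal RNA genes took 0.660% to 1.58% and 0.612% to 0.712%, and long noncoding RNA genes 3.35% to 3.60% and 3.63% to 3.76%; the part of these in the results was not tested, but leaving the mitochondrially encoded genes out changed no call of a member. Of the epithelial markers, 12 of 12 passed the filter, and their summed level was 4144.6 to 20994.2 CPM over all libraries, the highest in siDual. Most of this sum was the keratins KRT8, KRT7 and KRT18, at up to 9463.3, 5441.6 and 5261.5 CPM. The siRNA targets PAX8, SOX17 and MECOM are among the 12, and MSLN was at 1.01 CPM or less in every library. Fibroblast markers (5 of 5) summed to 25.2 to 82.6 CPM, nearly all COL1A1, endothelial markers (4 of 4) to 6.01 to 19.6, adipocyte markers (2 of 2) to at most 3.91, and immune markers (2 of 5) to 9.66 to 44.2, nearly all CD68; MS4A1 was at 0 and PTPRC at 0.133 CPM or less in every library.

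**Figure D1:**
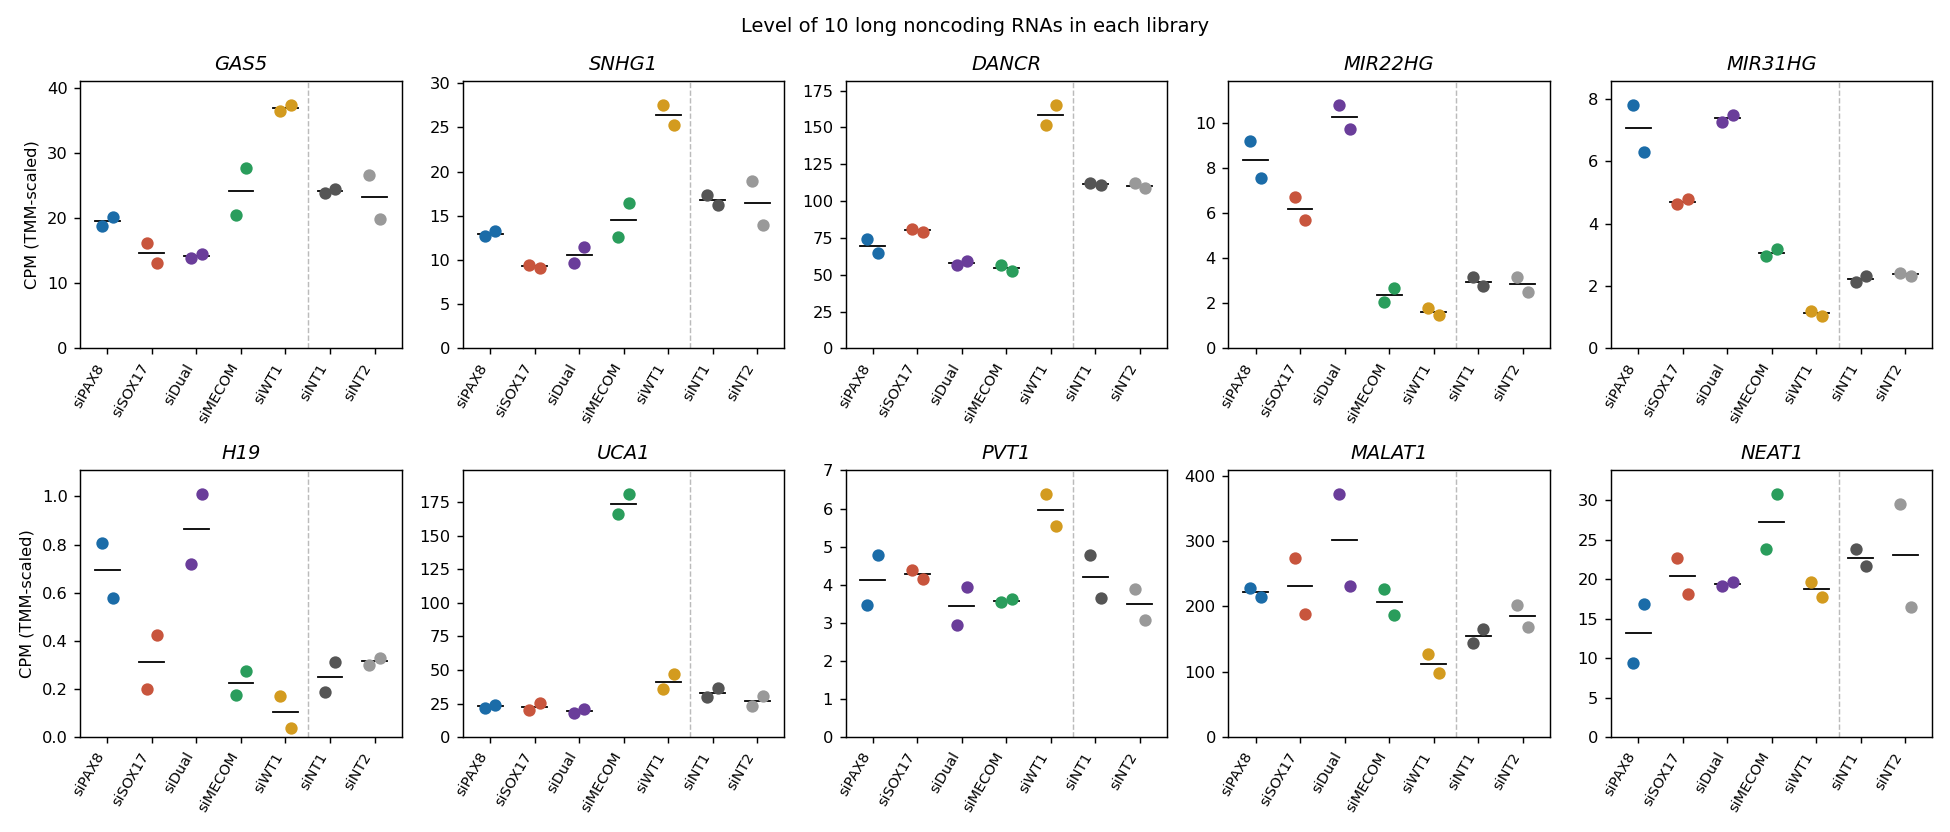
Level of each of the 10 long noncoding RNAs in each of the 14 libraries, in TMM-scaled CPM on a linear axis from 0 that differs between panels; points are libraries, black lines are group means, and the dashed line separates the knockdown groups from the non-targeting groups. UCA1 stands at 166 and 181 CPM in siMECOM and at 18.2 to 47.0 CPM in all other libraries, MIR22HG and MIR31HG are high in siPAX8, siSOX17 and siDual and low in siWT1, and DANCR, GAS5 and SNHG1 are highest in siWT1.

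The first comparison asked which members changed when PAX8, a lineage factor of Mullerian epithelium, was knocked down. In siPAX8 against the controls 8 of 10 members passed at an adjusted p under 0.05 in edgeR (quasi-likelihood test, p-values adjusted over all genes by Benjamini and Hochberg), MIR31HG, MIR22HG, H19 and MALAT1 higher and NEAT1, DANCR, UCA1 and SNHG1 lower. Over all genes tested 26.9% passed as higher and 25.4% as lower, and 52.2% in either direction, the background for the 8 members. Without the first siPAX8 library, 3 of 10 passed. In siSOX17, the pool against a factor co-expressed with PAX8 in these tumours, MIR22HG, MIR31HG and MALAT1 were higher and SNHG1, GAS5, DANCR and UCA1 lower, against 27.2% of all genes higher and 25.5% lower, 52.6% in all. In siDual 4 rose (H19, MIR22HG, MIR31HG, MALAT1) and 4 fell (DANCR, GAS5, SNHG1, UCA1), against 28.9% and 27.3% of all genes, 56.2% in all. With MECOM, a zinc finger factor amplified in many ovarian tumours, knocked down, UCA1 and MIR31HG rose and DANCR fell, against 16.5% and 16.1% of all genes, 32.6% in all. In siWT1, the pool against the zinc finger factor WT1, 5 rose (SNHG1, GAS5, PVT1, DANCR, UCA1) and 4 fell (H19, MIR31HG, MIR22HG, MALAT1), against 17.7% and 19.8% of all genes, and 37.5% in either direction. The members' median log2 change was -0.09 in siPAX8, -0.02 in siSOX17, -0.19 in siDual, -0.03 in siMECOM and 0.09 in siWT1, with the median of all genes within 0.01 of 0 in each. Among the 3944 other long noncoding RNA genes tested, 21.4% were higher and 18.4% lower in siPAX8, 24.0% and 17.5% in siSOX17, 24.8% and 19.3% in siDual, 16.1% and 9.31% in siMECOM, and 7.94% and 15.9% in siWT1. These 5 comparisons share the 4 control libraries. Between the control pools themselves, siNT1 against siNT2, none of the 10 passed, none had an unadjusted p under 0.05, and 0.300% of all genes passed.

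**Figure D2:**
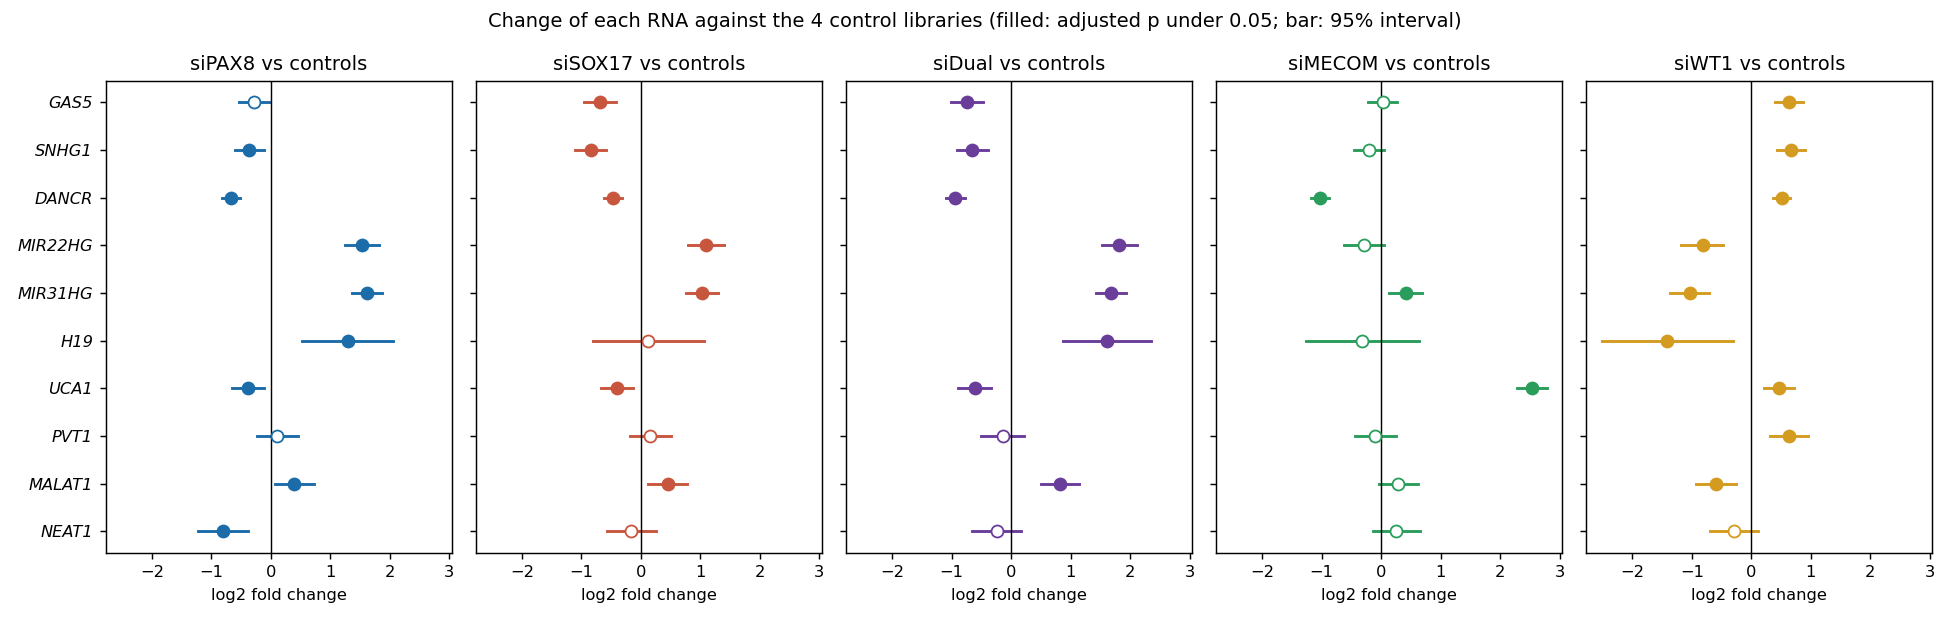
Log2 fold change of each member in each knockdown against the 4 control libraries; points are the fitted changes, bars 95% intervals, and filled points passed at an adjusted p under 0.05. The snoRNA hosts in the top rows lie left of 0 in siSOX17 and siDual and right of it in siWT1, MIR22HG and MIR31HG lie on the opposite side in those groups, and UCA1 in siMECOM is the largest change at 2.54.

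The snoRNA hosts moved together in most groups. GAS5 (ENSG00000234741.7, hg38 chromosome 1, 173863900 to 173868882, minus strand) was named for its rise in growth-arrested cells. It stood at 18.8 and 20.3 CPM in siPAX8, 16.3 and 13.2 in siSOX17, 13.9 and 14.5 in siDual, 20.6 and 27.7 in siMECOM and 36.5 and 37.4 in siWT1, against 23.9 and 24.5 in siNT1 and 26.7 and 19.9 in siNT2. Both siSOX17 and both siDual libraries lay below every control and both siWT1 libraries above, while siPAX8 and siMECOM overlapped the controls. The log2 change was -0.68 ± 0.13 (SE; adjusted p 0.000135) in siSOX17, -0.74 ± 0.13 (4.72e-05) in siDual and 0.64 ± 0.11 (0.000206) in siWT1. In siPAX8 it was -0.28 ± 0.12 and missed the threshold at an adjusted p of 0.0576. It passed under some other settings, at 0.0237 with library totals alone and at 0.00944 without the second siNT2 library. In siMECOM the value was 0.03 ± 0.12.

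SNHG1 (ENSG00000255717.6, chromosome 11, 62851988 to 62855914, minus strand), the host of a cluster of box C/D snoRNAs, followed GAS5 closely. Its levels were 12.7 and 13.3 CPM in siPAX8, 9.43 and 9.15 in siSOX17, 9.71 and 11.5 in siDual, 12.6 and 16.4 in siMECOM and 27.5 and 25.3 in siWT1, against 17.4 and 16.2 in siNT1 and 18.9 and 14 in siNT2. The siPAX8, siSOX17 and siDual libraries all lay below the controls, and the siWT1 libraries above them. SNHG1 fell by 0.36 on the log2 scale in siPAX8 (SE 0.12, adjusted p 0.0165), by 0.84 in siSOX17 (SE 0.13, 1.54e-05) and by 0.65 in siDual (SE 0.12, 0.000175), and rose by 0.66 in siWT1 (SE 0.11, 0.000116). The siPAX8 call was lost without either siPAX8 library, at adjusted p 0.1 without the first and 0.0541 without the second, and without the first siNT2 library at 0.0787. Within the exons that the count table gives SNHG1, 6 annotated snoRNAs lay whole and 1 in part, with 862 reads in all over 14 libraries. SNORD22 fell by 1.45 ± 0.54 on the log2 scale in siPAX8, 1.5 ± 0.57 in siSOX17 and 1.57 ± 0.57 in siDual, and SNORD26 by 1.91 ± 0.55, 1.68 ± 0.56 and 1.35 ± 0.52, all past the threshold. RF00099 also passed as lower in siPAX8 and siDual, and SNORD30, with 76 reads in all, in siDual, while none of the 7 passed in siMECOM or siWT1. The count table's exons are a union, 3756 bases for SNHG1, and can take in introns of the spliced host. Reads over these snoRNAs are therefore of the host or the snoRNA and not a measure of the mature snoRNAs.

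DANCR (ENSG00000226950.6, chromosome 4, 52712404 to 52720351, plus strand), known as a suppressor of differentiation and the host of a snoRNA and of miR-4449, was the most precisely measured member. It stood at 74.0 and 65.1 CPM in siPAX8, 81.4 and 79.2 in siSOX17, 56.4 and 59.7 in siDual, 56.4 and 52.5 in siMECOM and 152 and 165 in siWT1, against 112 and 111 in siNT1 and 112 and 109 in siNT2. No knockdown library overlapped the controls, whose mean was 111 ± 1.35 CPM (SD, n = 4). DANCR fell by 0.67 ± 0.07 on the log2 scale in siPAX8 (adjusted p 1.83e-07), 0.47 ± 0.07 in siSOX17 (1.73e-05), 0.94 ± 0.07 in siDual (2.2e-09) and 1.03 ± 0.07 in siMECOM (2.97e-09), and rose by 0.51 ± 0.07 in siWT1 (8.06e-06). It was thus the snoRNA host that passed in siMECOM, where GAS5 and SNHG1 (-0.20 ± 0.12) did not, though the difference between the genes was not tested.

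Other snoRNA host RNAs were listed to set these against, the SNHG family with ZFAS1, EPB41L4A-AS1 and LRRC75A-AS1, and 23 of 24 were tested. In siPAX8 1 rose and 10 fell with a median of -0.36, in siSOX17 2 and 14 with -0.41, in siDual 2 and 15 with -0.53, and in siMECOM 3 and 8 with -0.23. In siWT1 11 rose and 2 fell, with a median of 0.28. Over all genes 26.9% rose and 25.4% fell in siPAX8, 27.2% and 25.5% in siSOX17, and 28.9% and 27.3% in siDual. The shares were 16.5% and 16.1% in siMECOM and 17.7% and 19.8% in siWT1. Between the control pools, siNT1 against siNT2, 2 of the 23 passed as higher in siNT1, where 0.300% of all genes passed. By gene, 10 of the 23 fell in siPAX8, siSOX17 and siDual alike, and 3 of those 10 rose in siWT1. The share of all genes that did the same was not worked out, so whether these counts are unusual cannot be judged. The comparisons also share their controls, and siDual holds both the PAX8 and the SOX17 pool. SNHG17 had the largest fall in siSOX17, to 3.39 CPM against 11.4 in the controls (-1.75 ± 0.15, adjusted p 1.67e-08), and SNHG7 fell there to 9.68 against 25.5 CPM. SNHG4 fell by 1.11 ± 0.18 in siPAX8 (4.89e-05). SNHG22 went the other way, higher in all 5 knockdowns, at 4.65 CPM in siSOX17 against 2.29 in the controls. The share of all genes higher in all 5 was not worked out either. In siWT1 SNHG7 (-0.57 ± 0.09) and SNHG14 (-0.36 ± 0.09) were the 2 that fell.

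**Figure D3:**
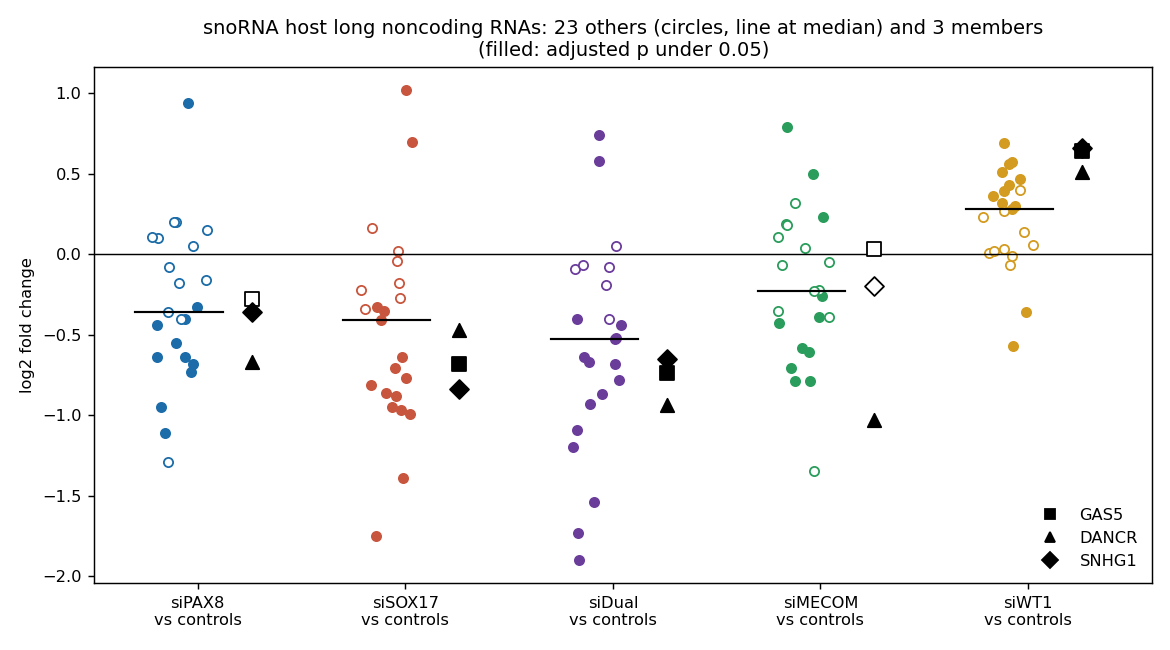
Log2 fold change against the controls of the 23 other snoRNA host RNAs (circles, with a line at their median) and of GAS5, DANCR and SNHG1 (black symbols) in each knockdown; filled symbols passed at an adjusted p under 0.05. The median of the 23 is -0.36, -0.41, -0.53 and -0.23 in siPAX8, siSOX17, siDual and siMECOM and 0.28 in siWT1.

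Genes for the snoRNA particle and for decay of host RNAs were counted beside them. Over all genes 26.9% rose and 25.4% fell in siPAX8, 27.2% and 25.5% in siSOX17, and 28.9% and 27.3% in siDual. The shares were 16.5% and 16.1% in siMECOM and 17.7% and 19.8% in siWT1. Of 16 snoRNP protein genes, 2 rose and 12 fell in siPAX8 (median -0.42), 1 and 11 in siSOX17 (-0.30), 2 and 13 in siDual (-0.35) and none and 7 in siMECOM (-0.06), while 9 rose and none fell in siWT1 (0.19). SNU13, the 15.5K protein that binds box C/D RNAs, fell to 26.4 CPM in siPAX8 against 95.6 in the controls (-1.85 ± 0.07, adjusted p 2.86e-13), and NOP56, a core box C/D protein, to 64.2 against 148 (-1.20 ± 0.07, 6.32e-11). NOP58, its partner, rose to 134 CPM in siWT1 against 86.8 (0.63 ± 0.07, 2.15e-06). Of 18 nonsense-mediated decay factors 13, 12 and 14 fell and 1 rose in siPAX8, siSOX17 and siDual, 2 fell and 1 rose in siMECOM, and 2 fell and 5 rose in siWT1. UPF3B, which links the exon junction to decay, stood at 5.63 CPM in siPAX8 and 25.3 in siWT1, against 13.5 in the controls (-1.26 ± 0.14 and 0.91 ± 0.12). Of 19 translation factor genes with a terminal oligopyrimidine tract, a start motif of growth-regulated messages that some snoRNA hosts share, 8 fell in siPAX8, 2 in siSOX17, 10 in siDual and 12 in siMECOM, with 1 higher in siSOX17 and none in the other 3; in siWT1 7 rose and none fell.

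The microRNA hosts MIR22HG and MIR31HG ran opposite to the 3 snoRNA host members in the knockdowns other than siMECOM. MIR22HG (ENSG00000186594.14, chromosome 17, 1711493 to 1717174, minus strand) holds miR-22 in an exon. It stood at 9.2 and 7.58 CPM in siPAX8, 6.72 and 5.7 in siSOX17, 10.8 and 9.77 in siDual, 2.07 and 2.69 in siMECOM and 1.81 and 1.47 in siWT1, against 3.18 and 2.77 in siNT1 and 3.19 and 2.51 in siNT2. All libraries of siPAX8, siSOX17 and siDual were above every control, and both of siWT1 below. MIR22HG was 2.88-fold higher in siPAX8 (log2 1.53 ± 0.14, adjusted p 1.91e-08), 2.13-fold in siSOX17 (1.09 ± 0.14, 3.18e-06) and 3.53-fold in siDual (1.82 ± 0.14, 1.2e-09). In siWT1 it fell by 0.82 ± 0.17 (0.000757), and in siMECOM the change of -0.29 ± 0.16 missed the threshold. The annotated MIR22 precursor inside the exon, with 478 reads in all, changed by 1.09 ± 0.27 in siPAX8, 0.84 ± 0.29 in siSOX17, 1.67 ± 0.26 in siDual and -1.21 ± 0.37 in siWT1, all past the threshold; it lies within MIR22HG, so these reads are of the host or its precursor and not a measure of mature miR-22.

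MIR31HG (ENSG00000171889.3, chromosome 9, 21455642 to 21559669, minus strand) is the host of miR-31. Its span overlaps the interferon gene IFNE, and the nearest interferon alpha gene, IFNA1, lies 14326 bases away. Its levels were 7.79 and 6.31 CPM in siPAX8, 4.63 and 4.78 in siSOX17, 7.26 and 7.49 in siDual, 2.97 and 3.18 in siMECOM and 1.2 and 1.05 in siWT1, against 2.14 and 2.33 in siNT1 and 2.42 and 2.33 in siNT2. No knockdown library overlapped the controls. It was 3.05-fold higher in siPAX8 (log2 1.61 ± 0.12, adjusted p 1.5e-09), 2.03-fold in siSOX17 (1.02 ± 0.13, 1.87e-06), 3.19-fold in siDual (1.68 ± 0.12, 8.39e-10) and 1.33-fold in siMECOM (0.41 ± 0.13, 0.0229), and it fell by 1.03 ± 0.16 in siWT1 (3.65e-05). The siMECOM call was lost without either siMECOM library (adjusted p 0.066 and 0.184), without the first siNT1 library (0.0626) and without the second siNT2 library (0.0669). It was also lost with DESeq2 (0.0633), with no filter on low counts (0.0779) and against siNT2 alone (0.0883). The MIR31 precursor was listed at 0 reads in all 14 libraries. An interferon pseudogene on the opposite strand, IFNWP19, shares 303 exon bases with MIR31HG and had 68.6% to 84.0% as many reads as it in every library; it changed by 1.68 ± 0.13 in siPAX8 and -0.87 ± 0.17 in siWT1, and since the counting is not stated to use strand, the reads of the pair cannot be told apart.

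Of 16 other microRNA hosts tested, 1 rose and 3 fell in siPAX8 (median -0.10), 5 and 2 in siSOX17 (0.34), 4 and 3 in siDual (0.30), and 1 and 1 in both siMECOM (-0.04) and siWT1 (-0.06). Over all genes 26.9%, 27.2% and 28.9% rose in the first 3 of these groups, and 25.4%, 25.5% and 27.3% fell. The shares were 16.5% and 16.1% in siMECOM and 17.7% and 19.8% in siWT1. MIR99AHG, the host of miR-99a and let-7c, was the 1 that rose in siPAX8, to 7.22 CPM against 3.13 in the controls (1.21 ± 0.14, adjusted p 3.79e-07), and it was at 7.93 CPM in siDual. Against 26.9% of all genes higher and 25.4% lower in siPAX8, 6 of 15 microRNA processing genes rose there and 6 fell. In siSOX17 4 rose and 5 fell, in siDual 3 and 4, in siMECOM 4 and none, and in siWT1 8 and 3, beside the shares above. Among these 15 genes AGO1, an Argonaute that carries microRNAs, fell to 13.3 CPM in siPAX8 against 41.1 (-1.63 ± 0.10). DICER1, which cuts precursors, was at 106 in siPAX8 against 60.6 (0.81 ± 0.08).

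H19 (ENSG00000130600.17, chromosome 11, 1995163 to 2001470, minus strand) was the rarest member, so its values are read counts. The libraries held 38 and 26 reads in siPAX8, 8 and 16 in siSOX17, 27 and 45 in siDual, 8 and 14 in siMECOM and 9 and 2 in siWT1, against 8 and 16 in siNT1 and 15 and 15 in siNT2. The siPAX8 and siDual libraries lay above all controls by CPM and the siWT1 libraries below. H19 was 2.44-fold higher in siPAX8 (log2 1.29 ± 0.36, adjusted p 0.00595) and 3.06-fold in siDual (1.61 ± 0.36, 0.000732), and it fell by 1.41 ± 0.53 in siWT1 (0.0414). The siPAX8 call was lost without the first siPAX8 library (1.02, adjusted p 0.0978). In siWT1 the fall was 0.717 without the second siWT1 library, the one with 2 reads, and 2.8 without the first, and the call was lost without the second siWT1, second siNT1, first siNT2 or second siNT2 library. It was also lost with DESeq2 (0.0638), with library totals alone (0.0508) and against siNT1 alone (-1.26, adjusted p 0.124). Of 14 tested genes of the imprinted network that H19 belongs to, 8 rose and 3 fell in siPAX8, 5 and 3 in siSOX17, 5 and 2 in siDual, 4 and 2 in siMECOM, and 2 and 6 in siWT1. Over all genes 26.9% rose and 25.4% fell in siPAX8, 27.2% and 25.5% in siSOX17, and 28.9% and 27.3% in siDual. The shares were 16.5% and 16.1% in siMECOM and 17.7% and 19.8% in siWT1. PHLDA2, a growth restrictor, was at 18.7 CPM in siPAX8 against 5.66 in the controls (1.73 ± 0.11), and CDKN1C, a cell cycle inhibitor, fell to 2.65 against 7.34 CPM (-1.46 ± 0.17). IGF2, the gene reciprocally imprinted with H19, rose in siMECOM to 1.24 CPM against 0.719 (0.78 ± 0.25, adjusted p 0.0205), where H19 was at -0.32 ± 0.45.

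UCA1 gave the largest change of any member. UCA1 (ENSG00000214049.6, chromosome 19, 15828961 to 15836320, plus strand), studied in bladder and other carcinomas for its link with growth and drug resistance, stood at 166 and 181 CPM in siMECOM. The other groups were at 21.8 and 24.3 CPM in siPAX8, 20.1 and 25.2 in siSOX17, 18.2 and 20.9 in siDual and 35.7 and 47.0 in siWT1, against 29.6 and 36.4 in siNT1 and 23.3 and 30.9 in siNT2. Both siMECOM libraries thus lay far above all others, the siDual libraries lay below the controls, and the rest overlapped them. UCA1 was 5.8-fold higher in siMECOM (log2 2.54 ± 0.12, adjusted p 6.53e-12), and leaving out any 1 library kept this call. It fell by 0.38 ± 0.13 in siPAX8 (0.0191), 0.40 ± 0.13 in siSOX17 (0.0144) and 0.61 ± 0.13 in siDual (0.000562), and rose by 0.47 ± 0.12 in siWT1 (0.00507). The siPAX8 call was lost against siNT2 alone (-0.233, adjusted p 0.208) and without the first siPAX8, second siNT1 or second siNT2 library. The siSOX17 call was lost without the first siSOX17 library (-0.246) or the second siNT1 library and against siNT2 alone, and the siWT1 call without the second siWT1 library (0.256, adjusted p 0.205) and against siNT1 alone.

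Features that share bases with UCA1 were looked up after its values were seen. LINC01764, on the opposite strand, shares 489 of its 669 exon bases with UCA1 and had 32.6% to 41.0% as many reads in every library. Its log2 changes were 2.53 ± 0.12 in siMECOM (adjusted p 9.61e-12), -0.39 ± 0.14 in siPAX8, -0.53 ± 0.14 in siSOX17, -0.68 ± 0.14 in siDual and 0.50 ± 0.13 in siWT1, all past the threshold and close to those of UCA1. RF02202, annotated as a miscellaneous RNA of 75 bases wholly inside it, had 6868 reads and a change of 2.52 ± 0.14 in siMECOM. If the counting did not use strand, which is not stated, reads of UCA1 and LINC01764 cannot be told apart. All 18 genes that lie whole inside a member's exons on its own strand had reads, so reads over shared bases were given to the inner gene, to both or by an overlap rule; which of these is not given in the sources used here. Over all members, 9 opposite-strand genes shared exon bases with 7 of the 10. Their shares of reads differed widely. AP000769.2, with all 396 of its bases inside the MALAT1 exons, had at most 0.0926% as many reads as MALAT1. AC104066.1, which shares 271 bases with DANCR, had 0.234% to 0.77% as many as DANCR. Whether the counting used strand was not tested.

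PVT1 (ENSG00000249859.9, chromosome 8, 127794533 to 128101253, plus strand) passed in 1 knockdown. Its levels were 3.48 and 4.79 CPM in siPAX8, 4.38 and 4.16 in siSOX17, 2.95 and 3.94 in siDual, 3.54 and 3.62 in siMECOM and 6.38 and 5.53 in siWT1, against 4.78 and 3.65 in siNT1 and 3.89 and 3.08 in siNT2. The siWT1 libraries were the only ones that both lay above the controls, with a log2 change of 0.64 ± 0.15 (adjusted p 0.00263), and the call was lost without the first siWT1 library (0.529, adjusted p 0.055). In the other 4 knockdowns the change lay between -0.14 and 0.16, with 95% intervals of -0.23 to 0.45 in siPAX8, -0.18 to 0.50 in siSOX17, -0.50 to 0.21 in siDual and -0.44 to 0.25 in siMECOM. Its neighbour MYC, 53099 bases away on the same strand, fell by 0.53 ± 0.08 in siPAX8, 0.51 ± 0.08 in siSOX17 and 0.68 ± 0.08 in siDual (adjusted p 8.46e-06, 1.45e-05 and 3.42e-07), and was at 0.01 ± 0.07 in siWT1. PVT1 and MYC thus passed in different knockdowns, a difference that was not itself tested. Inside PVT1's exons, the miscellaneous RNAs RF02164 and RF02166 passed as higher in siSOX17, at 0.91 ± 0.34 (adjusted p 0.032) and 0.95 ± 0.37 (0.0354). RF02166 also passed in siWT1 (0.99 ± 0.34, 0.0286), and RF02164 did not (0.78 ± 0.33, 0.0697). Neither passed in siPAX8, siDual or siMECOM. Their reads, 320 and 293 over the 14 libraries, are not independent of PVT1.

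MALAT1 (ENSG00000251562.7, chromosome 11, 65497762 to 65506516, plus strand) varied more between libraries of a group than most members. It stood at 229 and 215 CPM in siPAX8, 274 and 189 in siSOX17, 372 and 232 in siDual, 227 and 187 in siMECOM and 127 and 98.4 in siWT1, against 144 and 165 in siNT1 and 203 and 168 in siNT2. The siPAX8 and siDual libraries were above all controls, and the siWT1 libraries below. MALAT1 rose by 0.83 ± 0.15 in siDual (adjusted p 0.00013) and fell by 0.59 ± 0.16 in siWT1 (0.0075). The rises of 0.39 ± 0.16 in siPAX8 (0.0417) and 0.45 ± 0.16 in siSOX17 (0.0211) were near the threshold and did not pass with DESeq2 (0.166 and 0.102), with library totals alone, or against siNT2 alone. Without the first siSOX17 library the siSOX17 change was 0.155, the siPAX8 call was lost without either siPAX8 library, and both calls were lost without the first siNT1 or the second siNT2 library. In siDual the change was 0.449 without the first library, and still passed. In siWT1 the call was lost without the second siWT1 library (-0.421) and against siNT1 alone. In siMECOM the change was 0.29 ± 0.16. RF01871, a miscellaneous RNA inside MALAT1's exon, passed as higher in siSOX17 (0.59 ± 0.17, adjusted p 0.00625) and siDual (0.96 ± 0.16, 5.73e-05). It did not pass in siPAX8 (0.24 ± 0.17), siMECOM (0.37 ± 0.17) or siWT1 (-0.38 ± 0.18), and its reads are not independent of MALAT1. Of 21 genes for nuclear speckle proteins none rose and 14, 16, 18 and 6 fell in siPAX8, siSOX17, siDual and siMECOM, and 1 rose and 3 fell in siWT1. Over all genes 26.9% rose and 25.4% fell in siPAX8, 27.2% and 25.5% in siSOX17, and 28.9% and 27.3% in siDual. The shares were 16.5% and 16.1% in siMECOM and 17.7% and 19.8% in siWT1. PNN, a speckle protein of splicing, fell to 68.3 CPM in siPAX8 against 109 (-0.68 ± 0.08), and SRSF4, a splicing factor, to 42.5 in siSOX17 against 78.2 (-0.88 ± 0.06).

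NEAT1 (ENSG00000245532.7, chromosome 11, 65422774 to 65445540, plus strand) passed in siPAX8 alone. Its levels were 9.45 and 16.9 CPM in siPAX8, 22.7 and 18.2 in siSOX17, 19.2 and 19.6 in siDual, 23.8 and 30.8 in siMECOM and 19.7 and 17.8 in siWT1, against 23.8 and 21.7 in siNT1 and 29.6 and 16.5 in siNT2. Even in siPAX8 the second library lay within the range of the controls, and no group was clear of them. The siPAX8 change was -0.80 ± 0.20 (adjusted p 0.00256), and 1 library set its size: it was -0.446 without the first siPAX8 library, where the call was lost (0.098), and -1.28 without the second. Against siSOX17 directly, siPAX8 was lower, with a log2 difference of -0.64 ± 0.23 (0.0346), which ran from -1.12 to -0.286 as single libraries were left out. This call was lost with DESeq2 (0.133), with library totals alone (0.0799), without the first siPAX8 library (-0.286, adjusted p 0.384) and without the first siSOX17 library (-0.475, 0.222). In siSOX17, siDual, siMECOM and siWT1 the changes were -0.16, -0.24, 0.25 and -0.29, each with an SE of 0.19 or 0.20. The 3 miscellaneous RNAs annotated inside its exons, RF01955, RF01956 and RF01957, changed by -1.15 ± 0.27, -0.95 ± 0.31 and -0.95 ± 0.23 in siPAX8, all past the threshold; they lie inside NEAT1, and their reads are not independent of it. NEAT1 has a short and a long isoform, which the gene-level counts do not separate, and whether the libraries selected polyadenylated RNA is not given in the sources used here. Of 22 paraspeckle protein genes 2 rose and 19 fell in siPAX8 (median -0.60), 1 and 19 in siSOX17 (-0.37), 1 and 20 in siDual (-0.52), 1 and 6 in siMECOM (-0.11), and 6 and 1 in siWT1 (0.08). Over all genes 26.9% rose and 25.4% fell in siPAX8, 27.2% and 25.5% in siSOX17, and 28.9% and 27.3% in siDual. The shares were 16.5% and 16.1% in siMECOM and 17.7% and 19.8% in siWT1. TAF15, an RNA-binding protein, fell to 18.4 CPM in siPAX8 against 57.4 (-1.64 ± 0.08), and DAZAP1, an RNA-binding protein of paraspeckles, to 31.1 in siSOX17 against 81.7 (-1.39 ± 0.07). FAM98A rose in siPAX8, siSOX17, siDual and siWT1, and stood at 150 CPM in siSOX17 against 76.8.

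The siDual group asked whether the PAX8 and SOX17 pools together did more than either alone. Against siPAX8, 2 of 10 members passed, GAS5 at -0.46 ± 0.14 (adjusted p 0.0262) and DANCR at -0.26 ± 0.08 (0.029), while 19.6% of all genes did. The GAS5 call was lost in 4 of the 14 fits that left out 1 library, those without a siPAX8 or siDual library, and the DANCR call in 3, without either siDual library or without the first siPAX8 library (-0.163, adjusted p 0.311). Against siSOX17 4 passed, H19 (1.49 ± 0.44), MIR22HG (0.73 ± 0.16) and MIR31HG (0.65 ± 0.14) higher and DANCR (-0.47 ± 0.08) lower, with 15.7% of all genes. The H19 call was lost with DESeq2 (0.0634), without the first siSOX17 library (1.03, adjusted p 0.232) and without the second siDual library (1.21, 0.219), and the MIR22HG call without the second siSOX17 library (0.0535). Between the single knockdowns, siPAX8 against siSOX17, 6 of 10 passed with 37.3% of all genes: H19 at 1.16 ± 0.44, MIR31HG at 0.59 ± 0.14, SNHG1 at 0.48 ± 0.14, MIR22HG at 0.43 ± 0.16 and GAS5 at 0.40 ± 0.14 were higher in siPAX8, and NEAT1 was lower. Each of these calls was lost in some of the 14 fits that left out 1 library. For H19 it was lost in 9, and the change ran from 0.705 to 1.79 over the 14 fits. The GAS5 and SNHG1 calls were lost in 3 each, with GAS5 at 0.255 (adjusted p 0.286) without the second siSOX17 library. The MIR22HG call was lost in 2, at 0.28 (0.294) without the first siPAX8 library and 0.318 (0.243) without the second siSOX17 library, and the MIR31HG call in 1, without the first siPAX8 library (0.419, 0.0644). With DESeq2 the H19 (0.116) and MIR22HG (0.0569) calls were lost as well.

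**Figure D4:**
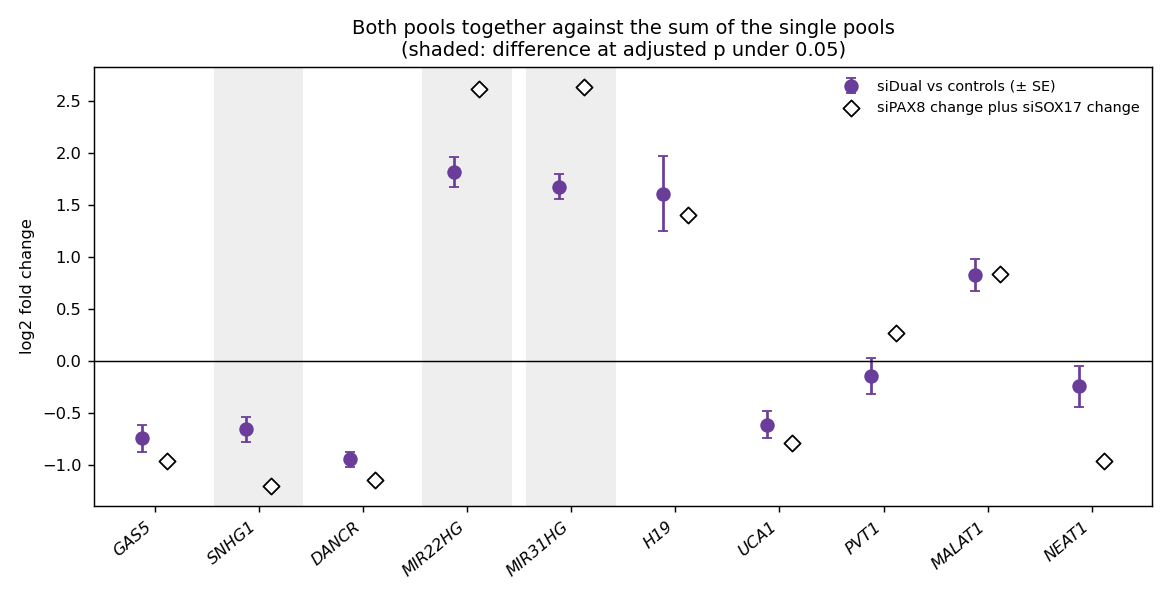
Change of each member in siDual against the controls (filled points, with SE) beside the sum of its siPAX8 and siSOX17 changes (open diamonds), on the log2 scale; shading marks members whose difference passed at an adjusted p under 0.05. MIR22HG is at 1.82 against a sum of 2.62, MIR31HG at 1.68 against 2.64 and SNHG1 at -0.65 against -1.20.

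Additivity on the log2 scale was tested as the siDual change minus the sum of the single changes. Of the 10 members 3 departed from it, against 25.1% of all genes. MIR31HG changed by 1.68 in siDual, against a sum of 2.64, a difference of -0.96 ± 0.19 (adjusted p 0.000785). MIR22HG changed by 1.82 against a sum of 2.62, a difference of -0.80 ± 0.21 (0.00808). SNHG1 fell by 0.65 in siDual against a sum of -1.20, a difference of 0.55 ± 0.19 (0.0382), which was lost in 7 of the 14 fits that left out 1 library and against siNT2 alone (0.0619). For MALAT1 the change of 0.83 was within 0.01 of the sum, with a 95% interval of the difference from -0.52 to 0.50, and NEAT1's difference of 0.72 ± 0.30 did not pass (0.09). Each difference also rests on siDual holding both pools, and the labels give 120 nM without saying how it was divided between them.

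Genes close to the members were set beside them. Of 37 tested protein-coding genes within 100 kb of a member, 7 rose and 15 fell in siPAX8, 11 and 12 in siSOX17, 10 and 14 in siDual, 6 and 6 in siMECOM and 11 and 6 in siWT1. Over all genes 26.9% rose and 25.4% fell in siPAX8, 27.2% and 25.5% in siSOX17, and 28.9% and 27.3% in siDual. The shares were 16.5% and 16.1% in siMECOM and 17.7% and 19.8% in siWT1. TLCD2, which lies 1055 bases from MIR22HG on the same strand and encodes a membrane lipid regulator, changed by 1.13 ± 0.10 in siPAX8, 1.40 ± 0.10 in siSOX17, 1.58 ± 0.10 in siDual, -0.24 ± 0.12 in siMECOM and -1.75 ± 0.14 in siWT1, the same directions as MIR22HG, with the siMECOM value not past the threshold. WDR81, whose span overlaps MIR22HG, changed by -0.17, -0.02, -0.23, 0.04 and 0.09 in these groups. ERVMER34-1, 2267 bases from DANCR, changed by -1.37 ± 0.15 in siPAX8 and -0.78 ± 0.14 in siDual, where DANCR fell. It changed by 0.80 ± 0.12 in siWT1, where DANCR rose. In siSOX17 it rose by 0.44 ± 0.13 and in siMECOM it was at -0.03 ± 0.13, while DANCR fell in both. SLC3A2, an amino acid transporter subunit 188 bases from SNHG1 on the opposite strand, rose by 0.22 ± 0.07 in siPAX8 and 0.20 ± 0.07 in siSOX17, where SNHG1 fell. ZBTB37, across the span of GAS5, rose by 0.38 ± 0.11 in siSOX17. Near UCA1 the 1 tested gene was the cytochrome CYP4F11, 76047 bases away, at -0.27 ± 0.11 in siMECOM (adjusted p 0.0765), and no protein-coding gene within 100 kb of MIR31HG was tested.

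Across the 14 libraries the log2 CPM of several members ran together or against each other, given here as a description of libraries that share groups, depth and controls. GAS5 and SNHG1 ran together (Pearson's r 0.97, Spearman's rho 0.93), as did MIR22HG and MIR31HG (0.94 and 0.87), and GAS5 ran against MIR22HG (-0.82 and -0.77). DANCR was less close to GAS5 (0.66 and 0.51) and ran less against MIR22HG (-0.62 and -0.51). MIR31HG also ran with MALAT1 (0.85 and 0.87) and H19 (0.87 and 0.84), which are outside these pairs. Among 11919 protein-coding genes of at least 1 mean log2 CPM, those named here are the 2 with the highest r to each member, or 1 of them for GAS5. They were DHRS1 (0.932) and STAG3 (0.928) for MALAT1, MTBP (0.857) and SUPT20H (0.826) for NEAT1, and WDR36 (0.891) and ADSS (0.875) for PVT1. They were AXL (0.927) and MSMO1 (0.918) for H19, JPH1 (0.971) for GAS5, and TXLNG (0.976) and BTG3 (0.967) for SNHG1. For MIR22HG they were TRIQK (0.983) and IER3 (0.982), for MIR31HG S100A16 (0.987) and MAPRE3 (0.986), for UCA1 SAMD11 (0.965) and PARD3B (0.954), and for DANCR RPL5 (0.963) and HSPA9 (0.953).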

How the data were processed

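RNA of 14 OVCAR4 libraries, 2 in each of 7 siRNA groups, was analysed from the deposited table of raw read counts per gene. The counts were made with STAR 2.5.1b, featureCounts 1.6.3 and the hg38 build, per the submitters' processing notes; the counting settings, strand and annotation release are not given in the sources used here. The table's length column (another deposited value, in bases) equalled the union of exons for all 58219 genes. Symbols came from GENCODE 29, matching 57881 identifiers. The members, companion lists and tests were chosen with earlier results of these data known.

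Counts were tested in edgeR 4.0.16 (R 4.3.3) with TMM scaling, a minimum count of 10 by filterByExpr, 1 quasi-likelihood model with a coefficient per group and 7 residual degrees of freedom, and Benjamini-Hochberg adjustment over 21032 genes; calls have adjusted p under 0.05. Controls are the mean of the siNT1 and siNT2 coefficients. CPM are TMM-scaled, and correlations used log2 CPM with a prior count of 2. The model was run on simulated counts with the same dispersion for every gene and a small set of genes changed in siPAX8 only. Far more genes passed in the real data, so that run does not test the model under the real conditions. Depth ranged from 40832825 to 49803860 counts. Named genes were the members, siRNA targets, neighbours within 100 kb, small RNAs inside members, the 2 genes of highest correlation to each, and up to 2 called genes per list and direction; genes that overlap members on the other strand were added after values were seen. Results for 2 genes that this rule names are not reported here. Alternatives were DESeq2 1.42.0, its size factors, library totals, no filter, a minimum count of 50, a replicate block, only the compared groups, each control pool alone, no mitochondrially encoded genes, and each library left out. Same-numbered libraries were not treated as pairs in the main fit. The correlation of their deviations over 21 pairs of groups was -0.018 to 0.161, with a median of 0.0716 and 7 over 0.1. These values do not settle whether the libraries were paired.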

Additional observations from a re-analysis of the deposited data

Results flagged for a closer look

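The effect of the SOX17 pool on 3 members differed with and without the PAX8 pool, by the test of the difference itself in edgeR. For MIR22HG the difference on the log2 scale was -0.80 (SE 0.21, adjusted p 0.00808): the SOX17 pool came with a change of 0.29 on top of the PAX8 pool (siDual against siPAX8) and of 1.09 against the controls. For MIR31HG it was -0.96 (SE 0.19, adjusted p 0.000785), with 0.07 on top of the PAX8 pool and 1.02 against the controls. For SNHG1 it was 0.55 (SE 0.19, adjusted p 0.0382), with -0.29 on top of the PAX8 pool and -0.84 against the controls. Such a difference was called for 25.1% of all genes tested. MIR31HG passed in all 14 fits that left out 1 library, MIR22HG in 12 and SNHG1 in 7; MIR22HG missed without the first siPAX8 library (-0.65, adjusted p 0.0543) and without the first siSOX17 library (-0.677, adjusted p 0.054).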

How the results depend on the processing

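Over 910 values of single members under the alternatives that kept all libraries or a full control pool, 858 kept their direction and their side of the threshold. Fits without the mitochondrially encoded genes left all 100 as they were. Every reversal concerned a value that had not passed. With library totals alone, which moved the median of all genes by -0.167 in siSOX17, -0.156 in siDual and 0.107 in the additivity test, the change was -0.0103 for PVT1 and -0.0434 for H19 in siSOX17, 0.0113 for MALAT1 and 0.025 for PVT1 in siPAX8 against siSOX17, and 0.0933 for MALAT1 in the additivity test. Against siNT1 alone PVT1 was at -0.0241 in siPAX8 and GAS5 at -0.000298 in siMECOM. Against siNT2 alone H19 was at -0.0269 in siSOX17, PVT1 at 0.0381 in siMECOM and MALAT1 at 0.123 in the additivity test. With no filter on low counts GAS5 was at -0.0133 in siMECOM, and 4 members passed in siDual against siPAX8. Between siNT1 and siNT2, 63 genes passed, 153 with DESeq2, 232 with no filter and 150 with a replicate block. The causes were not tested. The replicate block, which fits a shared difference between first and second libraries, added 4 calls of members and removed none. The calls were GAS5 in siPAX8, MALAT1 in siDual against each single pool, and DANCR in siPAX8 against siSOX17. UCA1 was higher in the second library of every group. Its adjusted p in siPAX8 in edgeR was 0.0191 without the block and 0.000266 with it. Whether same-numbered libraries share a batch is not given in the labels.

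Leaving out 1 library at a time gave these ranges. Members called numbered 3 to 9 in siPAX8, 0 to 3 in siDual against siPAX8, 2 to 7 in siPAX8 against siSOX17 and 1 to 4 in the additivity test. Genes called numbered 4096 to 7044 in siMECOM, 11 to 77 between siNT1 and siNT2, 2636 to 4220 in siDual against siPAX8 and 1822 to 3355 in siDual against siSOX17. Log2 changes that crossed 0 were PVT1 (-0.136 to 0.318) in siPAX8, NEAT1 (-0.355 to 0.0823) and H19 (-0.503 to 0.578) in siSOX17, NEAT1 (-0.444 to 0.000705) and PVT1 (-0.376 to 0.0376) in siDual, and PVT1 (-0.201 to 0.00174) and GAS5 (-0.206 to 0.219) in siMECOM. Between siNT1 and siNT2 they were NEAT1 (-0.378 to 0.458), GAS5 (-0.138 to 0.285), MIR22HG (-0.0965 to 0.244) and SNHG1 (-0.166 to 0.26). In siDual they were MIR31HG (-0.0826 to 0.229) against siPAX8, and MALAT1 (-0.00105 to 0.682), NEAT1 (-0.232 to 0.0873) and GAS5 (-0.208 to 0.096) against siSOX17. In siPAX8 against siSOX17 they were MALAT1 (-0.304 to 0.235), PVT1 (-0.294 to 0.16) and UCA1 (-0.133 to 0.19), and in the additivity test MALAT1 (-0.392 to 0.292) and H19 (-0.253 to 0.829). A fit that leaves a group with 1 library assumes that it varies like the others. Depth limits H19 most, at 2 to 45 reads a library.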
